A study of Mus musculus with 2 samples.

Results

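The miR-9 genes are the 3 mouse loci whose hairpins give the same microRNA pair, miR-9-5p and miR-9-3p, and their reads were followed in forebrain of B6NCrl mouse embryos at embryonic day 12.5. The members were chosen by Ensembl identifier: the rows of Mir9-2, Mir9-3 and Gm25641, 3 of the 1973 gene rows in each count table. Gm25641 is annotated on the strand opposite to Mir9-1, which has no row, so the opposite-strand count of Gm25641 was read as the count of Mir9-1. The series held 1 group of 2 biological replicates, both sexes pooled, with 120 embryos in replicate 1 and 68 embryos in replicate 2. Each pool gave 1 library from RNA below 30 nt, and the labels give a common donor record for both. There was no treatment, no mutant and no second tissue or age, so the questions are how many reads each miR-9 locus had and by how much the pools differed.

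MicroRNAs are short RNAs cut from hairpin precursors, and bases 2 to 8 of the mature strand, the seed, pair with target messenger RNAs and lower their output. In vertebrate brain miR-9 is a microRNA of neural progenitors and young neurons, and its known targets include transcripts of the progenitor regulators Nr2e1 and Hes1. Mice that lack Mir9-2 and Mir9-3 have a malformed telencephalon. In human cells miR-9-5p targets REST and miR-9-3p targets its partner RCOR1, both repressors of neuronal genes.

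The mature sequences are shown first, from RefSeq (GRCm38.p6), because all 3 loci share them, and capitals mark the seed. The lower pair, miR-9b, is annotated on the other strand of the same loci, with Gm25641 as its chromosome 3 gene.
miR-9-5p: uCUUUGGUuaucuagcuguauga
miR-9-3p: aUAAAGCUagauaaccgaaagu
miR-9b-5p: uUCGGUUAucuagcuuuauga
miR-9b-3p: aUACAGCUagauaaccaaaga
None of these 4 seeds occurred in any other of the 1679 mature names of the table, so miR-9 had no seed relatives there under another name. The 23-base 5p arm and the 22-base 3p arm are of equal length in every copy. A read that covers an arm must still reach beyond it to be placed, and how far differs between the copies, as given below.

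The hairpins of the 3 loci follow, with the mature arms in capitals, because the bases between and beside the arms are all that tells the copies apart.
Mir9-3 hairpin: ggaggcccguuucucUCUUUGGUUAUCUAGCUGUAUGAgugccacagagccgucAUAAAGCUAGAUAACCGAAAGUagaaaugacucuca
Mir9-1 hairpin: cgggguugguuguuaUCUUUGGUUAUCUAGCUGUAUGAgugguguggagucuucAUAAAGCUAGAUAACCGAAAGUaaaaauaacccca
Mir9-2 hairpin: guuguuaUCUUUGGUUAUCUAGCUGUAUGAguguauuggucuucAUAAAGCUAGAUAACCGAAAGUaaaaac
Mir9-3 (ENSMUSG00000093238.1) lies on the plus strand at chr7:79505264-79505353 of mm10, in an intron of all 4 annotated transcripts of the non-coding host Mir9-3hg that span it. Mir9-1 lies on the plus strand at chr3:88215598-88215686, in an intron of 5 transcripts of the non-coding gene Gm3764, and Gm25641 (ENSMUSG00000092876.1) covers it on the minus strand at chr3:88215589-88215696. Mir9-2 lies on the plus strand at chr13:83738814-83738885 in the non-coding gene C130071C03Rik, inside an exon of 1 transcript, partly in an exon of another and in an intron of yet another. Its identifier is ENSMUSG00000065424.1 in the tables and ENSMUSG00000065424.2 in the annotation used for these positions, so the interval that was counted may differ from the one given here. The loop between the arms is 16 bases in Mir9-3, 16 in Mir9-1 and 14 in Mir9-2.

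The libraries held 11104730 and 11154304 reads in replicates 1 and 2, of which 4333194 and 4397107 were assigned to a gene on its own strand, and levels are given per 1000000 of these (CPM). Reads that matched several places numbered 4213961 and 4224434, 46.0% and 45.5% of mapped reads, and stood outside every gene count. A read of a mature miR-9 arm alone matches at least 3 places, so the counts below hold only miR-9 reads that could be placed on 1 copy, and the level of miR-9 as a whole is not given by them. The level of 3 counts, used as the floor for a count of 0, was 0.692 CPM for replicate 1 against 0.682 CPM for replicate 2. The exact upper limit of a count of 0 was higher, 0.851 and 0.839 CPM. Intervals and such floors cover counting error only. In bulk tissue, fewer cells of a type and less RNA per cell cannot be told apart. The tissue label was read against marker lists. Of 10 forebrain and neural genes, which include the 3 miR-9 loci, 8 reached 10 reads in each library, against 20.4% of all rows, and they summed to 26065 ± 418.1 CPM (SD, n = 2), most of it from Mir92b and Mir137. Markers of other tissues were read too: 5 of 6 Hox cluster miRNAs, used behind the forebrain, 4 of 4 of blood, 5 of 5 mural and mesenchymal, 7 of 7 epithelial and 1 of 5 of muscle, with Mir126a of endothelium. Their sums were 182.3 ± 8.85 CPM for the Hox clusters, 763.6 ± 16.2 for blood, 9549 ± 1648 for mural and mesenchymal, 11818 ± 2559 for epithelium, 14.9 ± 16.5 for muscle, with 3 genes at 0, and 18872 ± 3264 for Mir126a. In the muscle list Mir1a-1, Mir1a-2, Mir133a-1 and Mir133a-2 are pairs of copies by name, and their loss to multimapping was not tested. Detection alone thus did not set the forebrain list apart, and the part of other cells in the miR-9 counts was not tested.

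Most placed miR-9 reads lay on Mir9-3. It had 3090 reads in replicate 1 and 3139 in replicate 2, or 713.1 and 713.9 CPM, with a mean of 713.5 ± 0.551 CPM (SD, n = 2). The exact Poisson intervals were 688.2 to 738.7 CPM and 689.1 to 739.3 CPM, and the difference between the pools was far smaller than the width of either. Mir9-3 stood at place 130 of 3946 features, where a feature is 1 strand of 1 row.

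Mir9-1, read opposite to Gm25641, had 413 and 388 reads in replicates 1 and 2. These were 95.3 and 88.2 CPM, with a mean of 91.8 ± 4.9999 CPM (SD, n = 2) and place 243. Both pools showed this locus below Mir9-3, with no overlap of their intervals.

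Mir9-2 had 23 and 26 reads in replicates 1 and 2, or 5.31 and 5.91 CPM, with a mean of 5.61 ± 0.428 CPM (SD, n = 2) and place 366. Its intervals, 3.36 to 7.96 CPM and 3.86 to 8.66 CPM, are wide because so few reads lay on it. It was still above the level of 3 counts in both libraries.

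The order Mir9-3, Mir9-1, Mir9-2 was therefore the same in both pools, and no interval of one locus overlapped that of the next. Mir9-3 held 87.6% of the placed miR-9 reads in replicate 1 and 88.3% in replicate 2, a mean of 88.0% ± 0.504 (SD, n = 2). Mir9-1 held 11.7% and 10.9%, with exact binomial intervals of 10.7% to 12.8% and 9.91% to 12.0%. Mir9-2 held 0.652% and 0.732%, with intervals of 0.414% to 0.977% and 0.479% to 1.07%. Together the 3 loci had 3526 and 3553 reads, 810.9 ± 4.02 CPM (SD, n = 2), or 0.0811% of assigned reads. For each placed miR-9 read there were 1195 multimapping reads in replicate 1 and 1189 in replicate 2, of which the share that was miR-9 cannot be read from the tables.

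**Figure D1:**
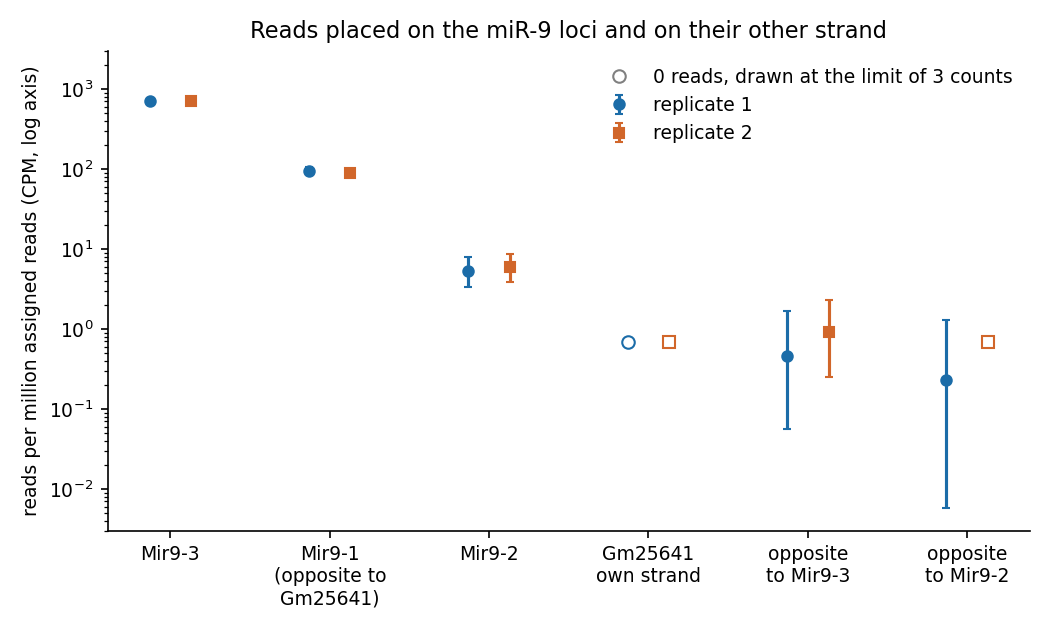
CPM over assigned reads (log axis) of the 3 miR-9 loci and of the other strand of each, for replicate 1 (circles) and replicate 2 (squares), with exact Poisson intervals; open symbols are 0 reads drawn at the level of 3 counts. Mir9-3 lies at 713.1 and 713.9 CPM, Mir9-1 at 95.3 and 88.2 CPM and Mir9-2 at 5.31 and 5.91 CPM, and every other-strand value is under 1 CPM.

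**Figure D2:**
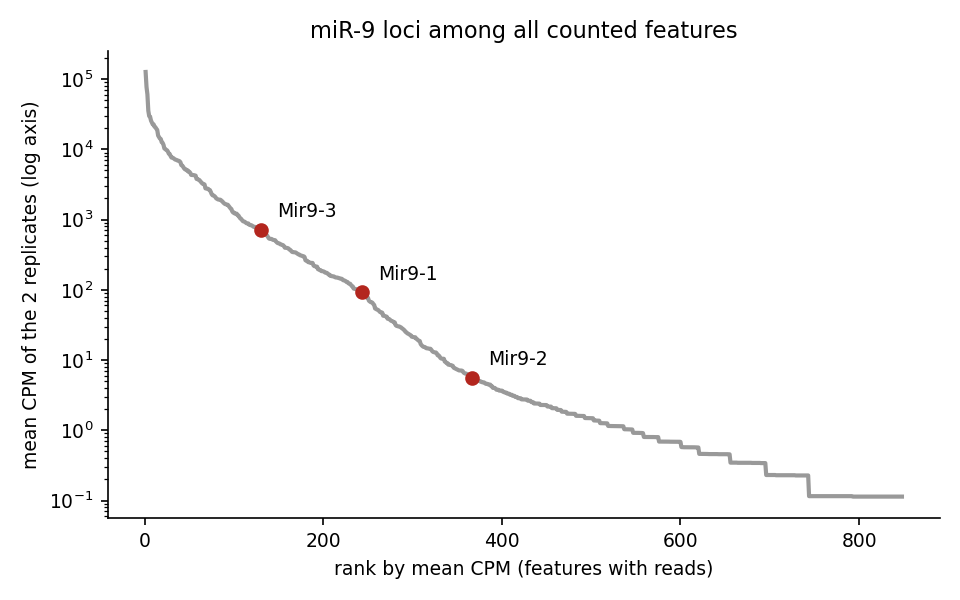
Mean CPM of the 2 replicates (log axis) against rank for every feature with reads (grey line), with the 3 miR-9 loci as red points. Mir9-3 is at place 130, Mir9-1 at place 243 and Mir9-2 at place 366.

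The other strand of the loci, where miR-9b is annotated, carried almost no reads. Gm25641 had 0 reads on its own strand in both libraries. The strand opposite to Mir9-3 had 2 reads in replicate 1 and 4 in replicate 2, and that opposite to Mir9-2 had 1 and 0. In all, the miR-9b strand held 3 of the reads on both strands in replicate 1 and 4 in replicate 2, or 0.0850% and 0.112%, with exact binomial intervals of 0.0175% to 0.248% and 0.0306% to 0.288%. The miR-9b arms are identical in the 3 loci too, so reads of them alone would also match several places, and a low count here does not show that miR-9b was absent.

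The copies differ in how easily a read can be assigned to them, which was read from the hairpins. The arms with up to 6 bases on each side are printed below, and capitals mark bases at which the copies differ.
Mir9-3 5p with flanks: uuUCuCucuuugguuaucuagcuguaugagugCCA
Mir9-1 5p with flanks: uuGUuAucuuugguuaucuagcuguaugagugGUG
Mir9-2 5p with flanks: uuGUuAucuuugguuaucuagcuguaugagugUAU
Mir9-3 3p with flanks: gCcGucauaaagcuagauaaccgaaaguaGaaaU
Mir9-1 3p with flanks: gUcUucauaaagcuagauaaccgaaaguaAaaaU
Mir9-2 3p with flanks: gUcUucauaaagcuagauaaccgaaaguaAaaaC
The 5p windows are chr7:79505273-79505307 for Mir9-3, chr3:88215607-88215641 for Mir9-1 and chr13:83738815-83738849 for Mir9-2, and the 3p windows chr7:79505312-79505345, chr3:88215646-88215679 and chr13:83738852-83738885, all on the plus strand of GRCm38.p6.

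Around the 5p arm Mir9-3 shares a run of 26 bases with each of the other copies, while Mir9-1 and Mir9-2 share at least 33, where the Mir9-2 hairpin ends. Around the 3p arm the runs are 25 bases for Mir9-3 with each of the others and 33 for Mir9-1 with Mir9-2. A read that covers a whole arm could be told from every other annotated hairpin at 24 bases if it came from Mir9-3, but only at 27 bases if it came from Mir9-1 or Mir9-2. For a read that starts at the annotated 5′ end of miR-9-5p the 3 copies are equal, since each needs 27 bases. For one that starts at the 5′ end of miR-9-3p, Mir9-3 needs 24 bases and both other copies need 28.

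Counted over all stretches of at most 29 bases that cover a whole arm, 54 of 64 from Mir9-3 occurred in no other annotated hairpin, against 10 of 64 from Mir9-1 and 9 of 63 from Mir9-2. Such a stretch is called placeable here. With at most 26 bases the numbers were 15 of 25 for Mir9-3, 0 of 25 for Mir9-1 and 0 of 25 for Mir9-2. The mismatches the alignment allowed and matches elsewhere in the genome are not part of these numbers.

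Mir9-3 had 7.48 times the reads of Mir9-1 in replicate 1 and 8.09 times in replicate 2, with exact intervals of 6.75 to 8.31 and 7.28 to 9.01. Divided by the placeable stretches of at most 29 bases, Mir9-3 had 57.2 and 58.1 reads per stretch and Mir9-1 had 41.3 and 38.8, so that the fold was 1.39 and 1.498. With stretches of at most 28 bases the fold was 0.799 ± 0.0441, below 1, and with at most 27 bases 0.299 ± 0.0165 (SD, n = 2). The order of these copies in assigned reads thus did not hold on every scale that takes account of their sequences. Stretches are not equally frequent among real reads, and the read lengths are not in the tables, so none of these folds measures how much each locus was transcribed.

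Mir9-1 and Mir9-2 have almost the same number of placeable stretches, and their reads differed nonetheless. Mir9-1 had 18.0 times the reads of Mir9-2 in replicate 1 and 14.9 times in replicate 2, with exact intervals of 11.8 to 28.6 and 10.03 to 23.1. Per placeable stretch of at most 29 bases the fold was 14.8 ± 1.93 (SD, n = 2), and with at most 28 or 27 bases it was 16.4 ± 2.14. Mir9-3 over Mir9-2 was 134.3 and 120.7 in reads in replicates 1 and 2, and 22.4 and 20.1 per placeable stretch of at most 29 bases. Mir9-2 was the lowest of the 3 on each of these scales.

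**Figure D3:**
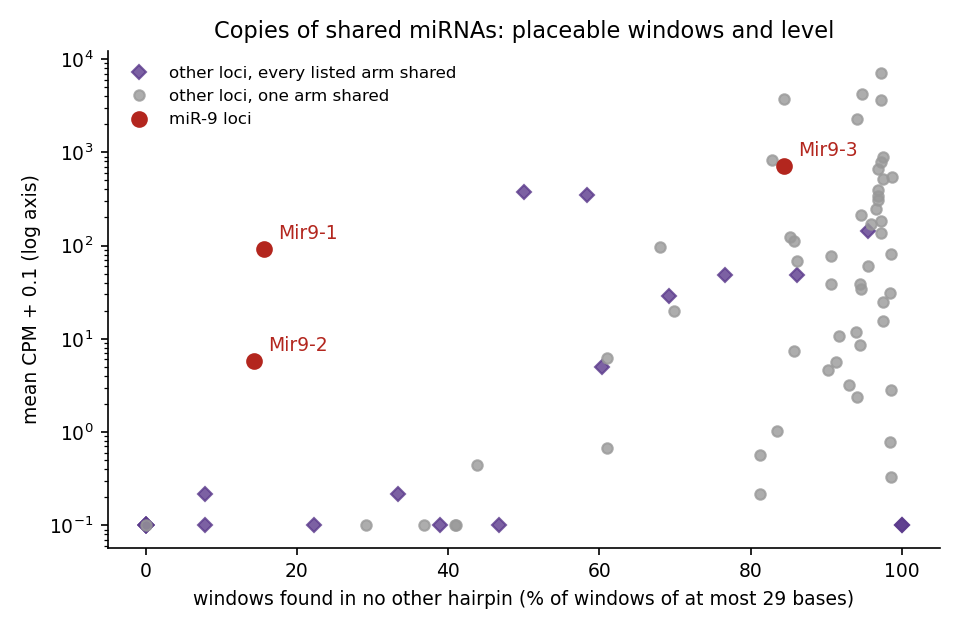
Share of placeable stretches (percent of stretches of at most 29 bases that cover a mature arm) against mean CPM plus 0.1 (log axis) for loci whose mature sequence occurs in another locus. Mir9-3 has 84.4% placeable and 713.5 CPM, while Mir9-1 and Mir9-2 have 15.6% and 14.3% placeable and lie at 91.8 and 5.61 CPM.

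Other genes also have a mature sequence found at several loci, though most share 1 arm only and lose fewer stretches. Of 91 such loci with counts, miR-9 left out, 50 reached 10 reads in each library, and the median of all 91 was 5.50 CPM. Among all rows the share with at least 10 reads in both was 20.4%. Where every listed arm was shared, as in miR-9, 7 of 35 loci had that many reads, and none of the 35 stood above Mir9-3. The nearest was Mir199b at 374.8 ± 90.1 CPM (SD, n = 2), a mesenchymal miRNA, whose partners Mir199a-2 and Mir199a-1 stood at 47.8 ± 11.2 CPM and 4.92 ± 1.73 CPM. Of these 35 loci, 3 were above Mir9-1 and 6 above Mir9-2. The list is not complete. Many of these loci, Mir199b among them, have only 1 arm in it, unlike miR-9. Whether their unlisted arm is shared was not tested.

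Mir9-1 and Mir9-2 stand near the low end of placeable shares. A limit of at most 20%, set after the values were seen, took in 19 further loci. Of these, 17 had no placeable stretch, so an exact read of a whole listed arm could not be placed on them. Mir344 and Mir344-2 had 7.89%. These loci therefore give no comparison at a matched share. Among families of at least 3 copies, that of Mir199b had the reads given above and the others had few. The Mir465, Mir680 and Mir692 genes with counts had 0 reads in both libraries, as had Mir344h-1, Mir344h-2, Mir344d-1 and Mir344d-2. Mir344d-3 had 2 and 1 reads in replicates 1 and 2, and Mir344e, with 90.2% of its stretches placeable, had 17 and 23.

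Over the 29 families with counts for every copy, miR-9 among them, the copy with most reads was the most placeable one in 12, was not in 7 and could not be ranked in 10 because the copies tied. In miR-9 the highest copy was the most placeable one. The fold between the highest and the lowest copy was 127.2 in miR-9, from mean CPM. In the 7 neural families with a pair of copies it had a median of 2.15, from 1.46 for Mir128-1 over Mir128-2 to 6.12 for Mir219a-1 over Mir219a-2. Larger folds than in these pairs occurred outside the neural list: 378.2 for Mir3074-1 over Mir3074-2, above that of miR-9, 117.3 for the Mir194 copies, 76.2 for the Mir199 copies and 69.6 for the Mir181b copies. These 4 families were picked by their folds. In most of the neural pairs 1 arm is not shared, so most stretches are placeable on 1 copy.

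Mir3093 is the only other counted miRNA gene within 10000 bases of a miR-9 locus. It lies 340 bases upstream of Mir9-1 on the same strand, at chr3:88215171-88215257, also in an intron of Gm3764, and its arms occur at no other listed locus. It had 303 and 378 reads in replicates 1 and 2, or 69.9 and 86.0 CPM, against 95.3 and 88.2 CPM for Mir9-1. The pair was thus close in level, 77.9 ± 11.3 CPM for Mir3093 and 91.8 ± 4.9999 CPM for Mir9-1 (SD, n = 2). However, Mir9-1 counts only placeable reads, while the arms of Mir3093 match no other listed locus. Matches of Mir3093 elsewhere in the genome were not tested. Its log2 ratio of replicate 2 over replicate 1 was 0.298, with an adjusted p of 0.0240 by Fisher's exact test, against -0.11 for Mir9-1.

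The pools did not differ detectably at any miR-9 locus. The log2 ratio of replicate 2 over replicate 1 was 0.0016 for Mir9-3, with an interval of -0.07 to 0.07 and an adjusted p of 1 by Fisher's exact test with Benjamini-Hochberg adjustment over 536 features. It was -0.11 for Mir9-1, with an interval of -0.31 to 0.09 and an adjusted p of 0.474 by the same exact test. It was 0.16 for Mir9-2, with an interval of -0.71 to 1.03 and an adjusted p of 0.881 by that exact test, so a change of up to about 2-fold would not have been seen there. Over all features, 2.61% were called at an adjusted p under 0.05 with a 2-fold difference, and 32.6% at the adjusted p alone, against 0 of 3 miR-9 loci by either rule and 0 at an unadjusted p under 0.05. This test compares 2 libraries and not conditions.

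Beside these ratios, the median absolute log2 ratio was 0.14 for 66 genes within 2-fold of the CPM of Mir9-3, 0.18 for 66 genes near Mir9-1 and 0.41 for 86 genes near Mir9-2. The closeness of the pools at Mir9-3 depended on the scaling. Its SD was 0.551 CPM here, 14.5 CPM with TMM factors, 7.48 CPM with DESeq2 factors and 9.08 CPM without the most abundant gene in the library size. The common coefficient of variation beyond counting error, from edgeR over 403 genes, was 16.4%. Marker lists differed in how far the pools lay apart. The 7 epithelial miRNAs summed to 13628 CPM in the first pool against 10008 CPM in the second. Within that list Mir203, at 1916 and 2401 CPM, and Mir205, at 692.1 and 976.3 CPM, went the other way. Mir126a stood at 16564 and 21180 CPM. Blood miRNAs summed to 752.1 and 775.1 CPM and those of the Hox clusters to 188.5 and 176.0 CPM. The close blood sums held opposite changes. Mir451a fell from 293.1 to 202.9 CPM, while Mir142 rose from 301.9 to 353.9 CPM, Mir223 from 132.5 to 182.8 CPM and Mir144 from 24.7 to 35.5 CPM.

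**Figure D4:**
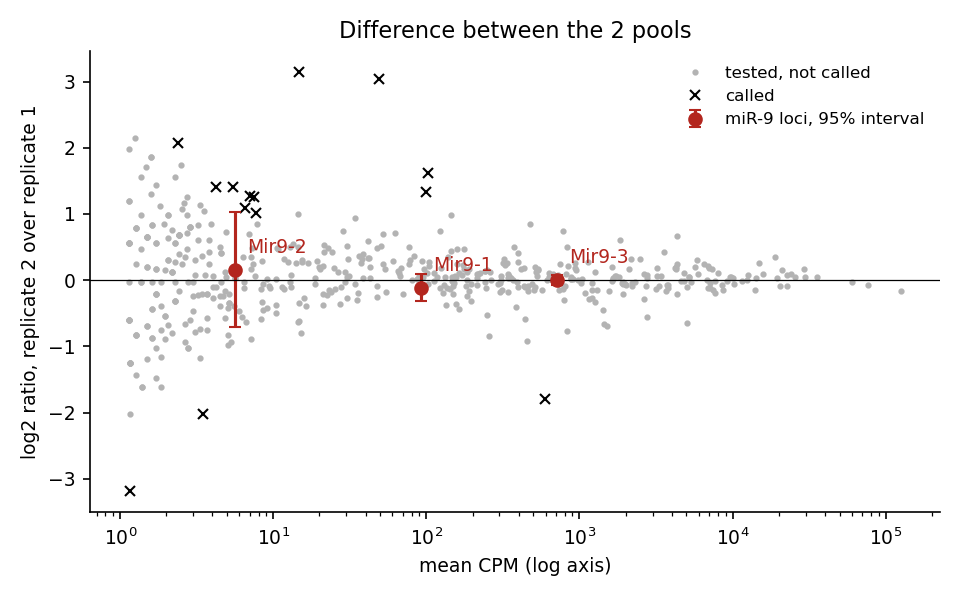
Log2 ratio of replicate 2 over replicate 1 against mean CPM (log axis) for 536 features; crosses are the 14 called features and red points the miR-9 loci with 95% intervals. The miR-9 loci lie at 0.0016, -0.11 and 0.16, and each interval includes 0.

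Set beside other neural miRNA genes, miR-9 was in the upper part of the list only through Mir9-3. Of 24 genes listed as neural, 22 reached 10 reads in each library, the median of the 24 was 199.4 CPM against 0 for all rows and 155.5 CPM for the 403 rows with that many reads, and 6 stood above Mir9-3. Highest was Mir92b, a cortical progenitor miRNA, at 19620 ± 283.3 CPM (SD, n = 2). Mir135b followed at 7624 ± 698.2 CPM and Mir137, which acts in neural progenitors and neurons, at 5207 ± 112.5 CPM. Mir153 stood at 2777 ± 745.1 CPM, Mir7b at 1260 ± 205.2 CPM and Mir219a-1, a miRNA of the oligodendrocyte lineage, at 880.6 ± 10.6 CPM. All but the last of these 6 have mature arms found at 1 listed locus, so reads of the arms alone could be counted, unlike those of miR-9.

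The neural genes with an identical arm elsewhere stood closer to the miR-9 copies. Mir7-1 was at 654.9 ± 12.0 CPM, below Mir9-3 by more than the spread of either, and Mir7-2 at 305.1 ± 0.567 CPM. The pair Mir135a-1 and Mir135a-2 stood at 397.1 ± 20.96 CPM and 183.1 ± 10.9 CPM, and Mir138-1 and Mir138-2 at 340.3 ± 5.71 CPM and 214.5 ± 3.45 CPM. Mir128-1 and Mir128-2, of young neurons, stood at 247.4 ± 19.0 CPM and 169.5 ± 6.99 CPM, so all 8 of these lay between Mir9-3 and Mir9-1. Mir219a-2 at 144.0 ± 66.9 CPM and Mir129-2 at 122.3 ± 43.4 CPM varied more between the pools, and neither differed from Mir9-1 beyond that spread. Mir129-1 was at 28.4 ± 10.1 CPM, Mir218-2, a motor neuron miRNA, at 24.8 ± 2.17 CPM and Mir218-1 at 15.5 ± 2.27 CPM, between Mir9-1 and Mir9-2.

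Mir124a-2, 1 of the 3 genes of the neuronal miRNA miR-124, had 24 and 31 reads in replicates 1 and 2, or 6.29 ± 1.07 CPM (SD, n = 2), against 5.61 ± 0.428 CPM for Mir9-2, and these did not differ beyond their spread. Mir124a-3 at 2.18 ± 0.139 CPM and Mir124a-1 at 1.95 ± 0.830 CPM were lower. Arms of the miR-124 genes are not in the sequence list used, so their loss to multimapping was not tested. The level of miR-124 as a whole is not given by these counts. The sum of the let-7 family, which shares the target Nr2e1 with miR-9, was 51200 ± 3187 CPM over 12 genes, against 810.9 ± 4.02 CPM for the placed reads of the miR-9 loci. Of these 12, 5 stood above Mir9-3.

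**Figure D5:**
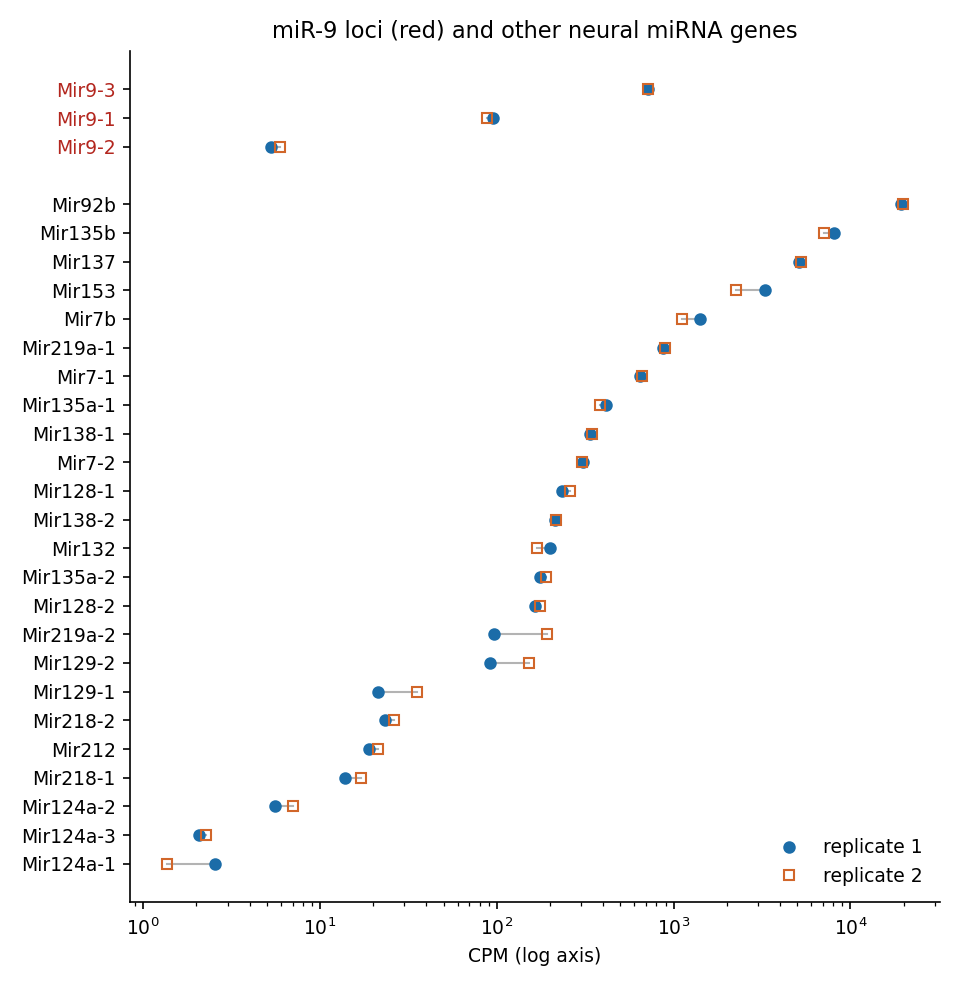
CPM (log axis) in replicate 1 (filled circles) and replicate 2 (open squares) of the 3 miR-9 loci, in red at the top, and of the 24 other neural miRNA genes in order of mean CPM. Mir9-3 lies at 713.1 and 713.9 CPM, below 6 of the 24 genes, and Mir9-2 lies beside Mir124a-2.

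The genes nearest to Mir9-3 in level, over 2 samples, were Mir302d at 726.4 ± 26.7 CPM, Mir187 at 727.6 ± 21.9 CPM and Mir501 at 732.1 ± 54.7 CPM above it. Below it came Mir320 at 666.4 ± 31.8 CPM, Mir186 at 663.4 ± 1.88 CPM and Mir7-1. The 3 above did not differ from Mir9-3 beyond their own spread.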

How the data were processed

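MicroRNA-seq of 2 pooled E12.5 forebrain samples was analysed. The authors deposited raw read counts per gene, not normalised, in a column for both strands, one for the gene strand and one for the opposite strand, from alignments to mm10 with annotation M4, per notes deposited alongside them. The columns were told apart by their values. Which aligner and counter were used, and what was done with multimapping reads, is not given in the sources used here. The 4 rows that name no gene stayed out of library sizes.

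Symbols and positions came from GENCODE M21 (1894 of 1973 identifiers matched), mature and hairpin sequences from RefSeq, matched by symbol for all 3 loci; the table is not complete. Levels in CPM used the gene-strand assigned reads as library size. Stretches of at most 29 bases covering an arm were searched in all other M21 and RefSeq hairpins, both strands. Features whose reads in the libraries summed to at least 10 were compared by Fisher's exact test, two-sided, with Benjamini-Hochberg adjustment, in SciPy 1.17.1; the opposite-strand features were set against the same library sizes. With 1 group edgeR has no contrast to test, so edgeR 4.0.16 in R 4.3.3 gave the common dispersion and TMM factors, and DESeq2 1.42.0 size factors. Steps were tested on simulated data. Confidence intervals are exact at 95%. P-values set the difference between 2 libraries against counting error alone and do not measure the spread between pools. Such a difference may be technical.

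The members, the lists and the limits were chosen with earlier results of these data known. The text names every member, the 3 genes above and 3 below Mir9-3 in level, up to 6 neural genes by level and those with identical copies, and copies of families of at least 3 genes. Some genes of the marker lists are named too. Alternatives covered library size, scaling, minimum reads, column and left-out replicates.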

Additional observations from a re-analysis of the deposited data

Results flagged for a closer look

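The reads that matched several places, 4213961 in replicate 1 and 4224434 in replicate 2, enter no comparison and exceed the floor of 3 counts, as any such total does. How many of them were miR-9 was not tested. On the strand opposite to Mir9-3, where miR-9b is annotated, replicate 2 had 4 reads, above the floor of 3 counts, and replicate 1 had 2. There were no control samples to set these values against.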

How the results depend on the processing

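No paired analysis was possible because the study has 1 group. Of 78 alternatives, 59 left the value within its spread or on the same side of its threshold. Those that left out 1 of the 2 replicates are among the 59 by construction, since either value lies within the SD of both. With all mapped reads as library size the means of Mir9-3, Mir9-1 and Mir9-2 were 337.8, 43.5 and 2.66 CPM, and without the most abundant gene 816.7, 105.1 and 6.42 CPM, by construction of the denominator. Mir9-3 was at 694.0 CPM with both strands in the library size and at 714.2 CPM in the both-strand column. Leaving out either replicate gave 713.1 to 713.9 CPM for Mir9-3, 88.2 to 95.3 for Mir9-1 and 5.31 to 5.91 for Mir9-2, and shares of 87.6% to 88.3%, 10.9% to 11.7% and 0.652% to 0.732%. The log2 ratio of Mir9-3 turned to -0.0415 with TMM and -0.0214 with DESeq2 factors, with adjusted p of 0.450 and 0.727 by Fisher's exact test (0.450 to 1 over its alternatives), none of which is a call. The identical run of Mir9-3 with Mir9-1 was 25 bases at the 3p arm in place of 26. The detected multi-copy loci numbered 85 of 926 by shared hairpin stretch in place of 50 of 91, and 7 of 35 with every listed arm shared. The last, and reads per placeable stretch, were added after the data were seen. Per stretch of at most 29, 28 and 27 bases, Mir9-3 over Mir9-1 was 1.44, 0.799 and 0.299 in place of 7.79, and Mir9-3 over Mir9-2 was 21.3, 13.1 and 4.91 in place of 127.5. Depth limits Mir9-2 most, at 23 and 26 reads.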
